A study of Homo sapiens with 6 samples.

Results

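Complement is a cascade of plasma proteins, made mainly by the liver, that coats microbes and damaged cells and can perforate membranes. The proteases C1r and C1s start the classical pathway by cleaving C4. C3 is the protein on which all routes converge, and factor B supplies the protease of the alternative pathway's C3 convertase. Nucleated cells protect themselves with the membrane regulators CD46, CD55 and CD59, which stop the cascade at C3 and C4 cleavage products, at the convertases and at the membrane attack complex. The genes described here are 6 soluble components (C3, C4A, C4B, CFB, C1R and C1S) and these 3 membrane regulators. The list was chosen by the difference in counts between these same libraries together with gene function, and its rows were found by symbol. All 9 were among the 12396 named genes of a table of 14006 rows. The differences of the 9 genes are therefore given as a description, without a test of their own.

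The libraries came from JHH-4, a human hepatocellular carcinoma cell line described as epithelial-like. The 3 overexpression libraries are from JHH-4 cells in which hsa-miR-372-3p was raised by a plasmid coding for its primary transcript. The 3 control libraries are from JHH-4 cells labelled WT (wild type) and the sources used here do not say what those cells received. All 6 share one line and one culture medium, and the series calls the replicates technical, so any p-value reflects variation among these 6 libraries, which may be technical.

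Total counts over named genes ran from 51072581 to 60070397 in overexpression libraries, against 46851245 to 47890069 in control libraries. The first principal component (72.5% of the variance) separated the groups. On the second (10.2%), control replicate 3 lay away from control replicates 1 and 2. Of 16 hepatocyte and liver carcinoma markers, 7 were in the table. Their summed level, in CPM (counts scaled to a common library size, in parts of 1000000), came mostly from KRT8 and KRT18. It was 4741 to 4892 CPM in overexpression and 2352 to 2445 CPM in control libraries. At an edgeR adjusted p under 0.05, 5 of the 7 rose (26.8% of all genes did) and 2 fell (27.7% did). ALB, AFP, APOA1 and TTR, also on this list of markers, were not among the rows analysed here. Of 23 markers of blood, endothelial and stromal cells, 8 were in the table. Their summed level was 334 to 338 CPM in overexpression and 352 to 397 CPM in control libraries. This sum hides opposite changes. COL1A1 (log2 fold change 3.72 ± 0.197, SE) and PDGFRB (1.16 ± 0.079) rose, and CSF1R (−2.12 ± 0.154) and RGS5 (−0.92 ± 0.052) fell. At the same threshold, 2 of the 8 thus rose (26.8% of all genes did), 2 fell (27.7% did) and 4 did not pass. Among those that did not pass were COL1A2 (0.29 ± 0.534), LUM (−0.06 ± 0.181) and CD14 (−0.47 ± 0.285). Without COL1A1 the sum was 270 to 276 CPM in overexpression and 349 to 393 CPM in control libraries. CD68 was present at 129 ± 2.30 and 130 ± 11.1 CPM (SD). PTPRC, PECAM1 and CDH5 were not among the rows analysed here. The part of these markers in the results below was not tested.

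The sequences that bear on a direct action of the microRNA are the microRNA and its matches in the 9 genes. A microRNA pairs with 3′ UTRs mainly through its seed, bases 2 to 8, shown in capitals, and the seed of hsa-miR-372-3p (RefSeq, GRCh38.p14, chr19:53787931-53787953, plus strand) pairs with AGCACTT. In the transcript with the longest 3′ UTR of each gene (GENCODE 29, GRCh38), 7 of the 9 genes held no GCACTT, the 6-base core of that match. Of all 12192 genes searched, 59.4% held none. The matches of the other two are given here with neighbouring bases in lower case.
hsa-miR-372-3p: aAAGUGCUgcgacauuugagcgu
CD46 3′ UTR match: gtaaatatagctcaggtAGCACTTtata
CD59 3′ UTR match: ttatgggtgttcattgtgGCACTTgagt

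The CD46 match is the 7-base AGCACTT at chr1:207794721-207794727 on the plus strand, bases 1244 to 1250 of a 3′ UTR of 2036 nt. It was in 9 of the 11 coding transcripts of CD46, and 25.5% of the genes searched held AGCACTT. The CD59 match is the 6-base core at chr11:33703249-33703254 on the minus strand, base 6872 onwards of a 3′ UTR of 7116 nt, and only 1 of 10 coding transcripts carried it. By the longest 3′ UTR of each gene, the 6 soluble components had from 141 nt (C4A and C4B) to 384 nt (CFB). These were short against a median of 1398 nt over the genes searched. In the transcript with the longest coding region, CFB had a 3′ UTR of 54 nt, C1R 111 nt and C3 178 nt. None of the coding transcripts of the 6 soluble components held GCACTT in the 3′ UTR. Upstream of the stop codon, C1S held 1 copy of AGCACTT and the other 8 genes held none. A match or its lack is a description of these letters, not of binding.

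The 6 soluble components were all lower in overexpressing cells, by 1.77-fold (C1S) to 7.73-fold (C3). Of the membrane regulators, CD55 was 1.41-fold higher, and CD46 and CD59 differed by less than 1.1-fold. Counted at an edgeR adjusted p under 0.05, 6 of the 9 genes were lower, where 27.7% of all 12396 genes were, and 1 was higher, where 26.8% were. At least 2-fold lower were 5 of them, where 3.2% of all genes were, and 0 were at least 2-fold higher, where 2.82% were. In 7 of the 9 the groups did not overlap, as in 62.2% of all genes: 6 lay below every control library (31.4% of all genes did) and CD55 lay above (30.7%). The median log2 fold change was −2.16 over the 6 soluble components, 0.12 over the 3 regulators and 0.0013 over all genes. The counts of the 9 genes carry no independent weight, because the list was made with this comparison known. In bulk libraries, a lower level in every cell and fewer expressing cells cannot be told apart.

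**Figure D1:**
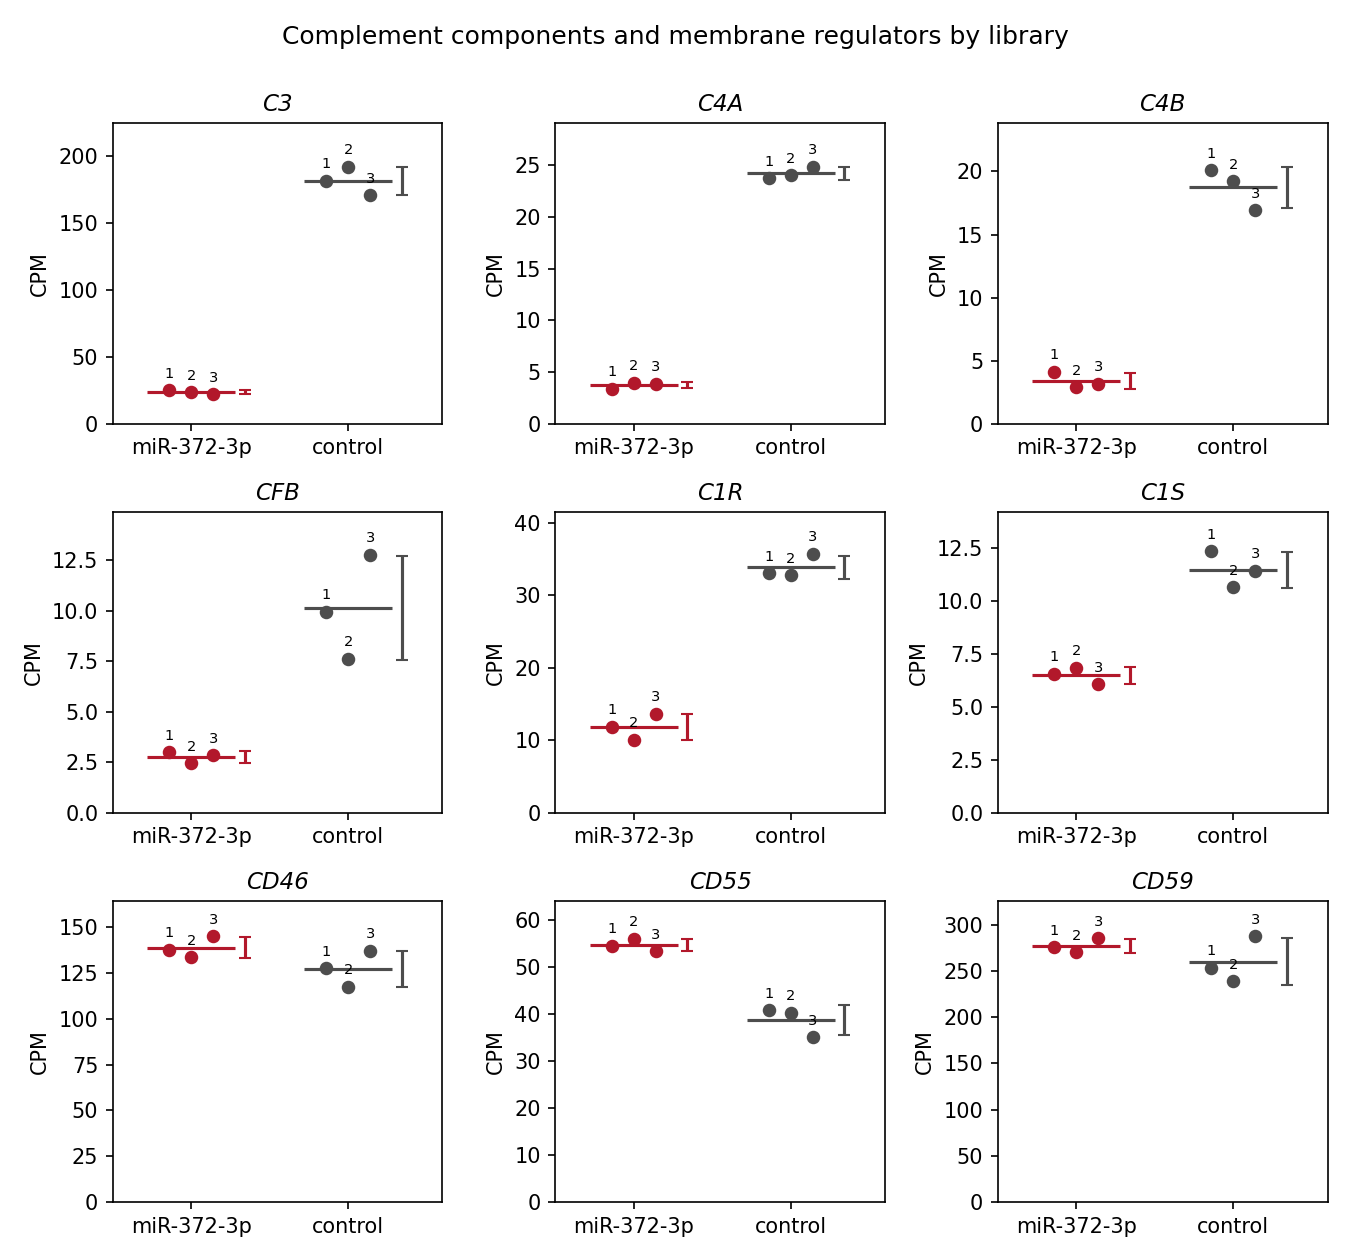
Level of each of the 9 genes in CPM (vertical axis, from 0) in the 3 miR-372-3p and the 3 control libraries; numbers beside points are replicates, lines are means and bars are SD. C3, C4A, C4B, CFB, C1R and C1S lie lower in all 3 miR-372-3p libraries, CD55 lies higher, and CD46 and CD59 overlap between the groups.

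C3, whose fragments tag surfaces for uptake and feed all later steps, had the largest change of the 9. C3 (ENSG00000125730, chr19:6677704-6730562, minus strand, GRCh38) had 24.9, 23.6 and 21.9 CPM in overexpression replicates 1 to 3, against 182, 192 and 171 CPM in control replicates 1 to 3. All overexpression libraries lay far below all controls, and replicates within a group stayed close, with a coefficient of variation of 6.48% in overexpression and 5.87% in control libraries. The counts behind these levels were 1495, 1192 and 1227 in overexpression and 8533, 8947 and 8289 in control libraries. The log2 fold change was −2.95 ± 0.063 (SE, n = 3 libraries a group), with a 95% confidence interval of −3.09 to −2.81. This was the 17th lowest log2 fold change of the 12396 genes tested.

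C4A and C4B code for the isotypes of C4, which C1s cleaves and whose larger fragment joins the classical C3 convertase. C4A (ENSG00000244731, chr6:31982024-32002681, plus strand) had 203, 199 and 216 counts in overexpression replicates 1 to 3 and 1113, 1118 and 1207 counts in control replicates 1 to 3, or 3.73 ± 0.297 and 24.2 ± 0.600 CPM (SD, n = 3 each). C4B (ENSG00000224389, chr6:32014795-32035418, plus strand) had 4.14, 2.91 and 3.18 CPM in overexpression and 20.1, 19.2 and 16.9 CPM in control libraries. Both fell below every control, with log2 fold changes of −2.70 ± 0.086 for C4A and −2.45 ± 0.137 for C4B. Their coding transcripts are 99.2% identical over 5460 aligned bases, with an identical stretch of 2769 bases, so the division of reads between them is uncertain. C4A took 45.0, 57.5 and 54.8% of the pair's counts in overexpression and 54.1, 55.5 and 59.5% in control libraries, and these ranges overlapped. Summed, an alternative chosen after seeing the data, the pair had 451, 346 and 394 counts in overexpression and 2057, 2013 and 2028 in control libraries. The summed log2 fold change was −2.59 ± 0.064. C4A also shares 303 exon bases on its own strand with STK19. STK19 rose (0.53 ± 0.102) to 10.6 ± 0.525 CPM in overexpression, above C4A, so C4A's counts are uncertain to that extent.

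CFB codes for factor B, the protease of the alternative pathway's convertase, and lies beside the C4 genes in the class III region of the major histocompatibility complex. CFB (ENSG00000243649, chr6:31945650-31952084, plus strand) had 2.99, 2.45 and 2.84 CPM in overexpression and 9.95, 7.62 and 12.7 CPM in control replicates 1 to 3. The groups did not overlap, but the controls were more spread than for any other of the 9 genes, with a coefficient of variation of 25.4%, control replicate 2 being lowest and control replicate 3 highest. The log2 fold change was −1.87 ± 0.189 (95% confidence interval −2.29 to −1.45). Without control replicate 3 it was −1.67. CFB shares 2249 exon bases with a read-through gene that joins it to C2 (AL645922.1, not among the rows analysed here), so its counts are uncertain to that extent.

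C1R and C1S, neighbours on chromosome 12, code for the serine proteases of the first component: C1r activates C1s, and C1s cleaves C4 and C2. C1R (ENSG00000159403, chr12:7080199-7092607, minus strand) had 11.9, 10.1 and 13.7 CPM in overexpression and 33.1, 32.8 and 35.8 CPM in control replicates 1 to 3. Its log2 fold change was −1.51 ± 0.102. C1S (ENSG00000182326, chr12:6988259-7071032, plus strand) had 6.57, 6.86 and 6.09 CPM in overexpression and 12.4, 10.7 and 11.5 CPM in control libraries. Its log2 fold change was −0.82 ± 0.10. For both genes every overexpression library lay below every control. C1R shares 672 exon bases on its own strand with C1RL, and C1S shares 229 with EMG1. C1RL fell (−0.49 ± 0.095), and EMG1 had a log2 fold change of 0.08 ± 0.098. EMG1 had 108 ± 1.87 CPM in overexpression and 102 ± 17.2 CPM in control libraries (SD), far above C1S. The counts of C1S are uncertain to the extent of shared reads.

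CD55, or decay-accelerating factor, is a GPI-anchored protein that takes C3 and C5 convertases apart. CD55 (ENSG00000196352, chr1:207321376-207386804, plus strand) had 54.5, 56.0 and 53.4 CPM in overexpression replicates 1 to 3, against 40.8, 40.2 and 35.0 CPM in control replicates 1 to 3. Every overexpression library was above every control. The log2 fold change was 0.50 ± 0.062 (95% confidence interval 0.36 to 0.64), and 0.43 without control replicate 3, the lowest of the controls.

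CD46, the membrane cofactor with which factor I cleaves C3b and C4b, and CD59, the GPI-anchored protein that blocks assembly of the membrane attack complex, overlapped between groups. CD46 (ENSG00000117335, chr1:207752057-207795513, plus strand) had 138, 134 and 145 CPM in overexpression and 128, 117 and 137 CPM in control replicates 1 to 3. CD59 (ENSG00000085063, chr11:33703010-33736491, minus strand) had 276, 270 and 285 CPM in overexpression and 254, 239 and 288 CPM in control libraries. Control replicate 3 held the highest control value of both genes, and for CD59 the highest of all 6. The 95% confidence intervals of the log2 fold changes, −0.0062 to 0.25 for CD46 and −0.047 to 0.23 for CD59, included 0. Without control replicate 3 the log2 fold changes were 0.18 for CD46 and 0.17 for CD59, and both then passed the threshold. Without control replicate 2 they were 0.073 for CD46 and 0.039 for CD59, and neither passed. On FPKM, CD59 had 0.26 and did not pass. CD59 shares 629 exon bases on its own strand with AL049629.2, which is not among the rows analysed here.

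Levels can be compared between genes only per length, by the deposited FPKM (fragments scaled to transcript length and library depth). In overexpressing cells the order was CD59 (68.4 ± 4.34 FPKM; SD, n = 3), CD46 (37.8 ± 1.88), CD55 (20.5 ± 0.259), C1R (4.12 ± 0.692), C3 (3.97 ± 0.283), C1S (1.99 ± 0.120), CFB (0.881 ± 0.122), C4A (0.605 ± 0.0417) and C4B (0.559 ± 0.114). Neighbours in this order overlapped only for C1R with C3 and for C4A with C4B. In control cells it was CD59 (57.8 ± 11.025 FPKM; SD, n = 3), CD46 (34.5 ± 3.05), C3 (30.7 ± 1.54), CD55 (13.9 ± 0.544), C1R (11.6 ± 0.691), C4A (3.93 ± 0.137), C1S (3.59 ± 0.385), CFB (3.14 ± 0.832) and C4B (3.06 ± 0.247). There C3 overlapped with CD46, and each of C4A, C1S and CFB overlapped with the next gene in the order, although C4A lay above C4B in every control library. C3 thus stood above CD55 in every control library and below it in every overexpression library.

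**Figure D2:**
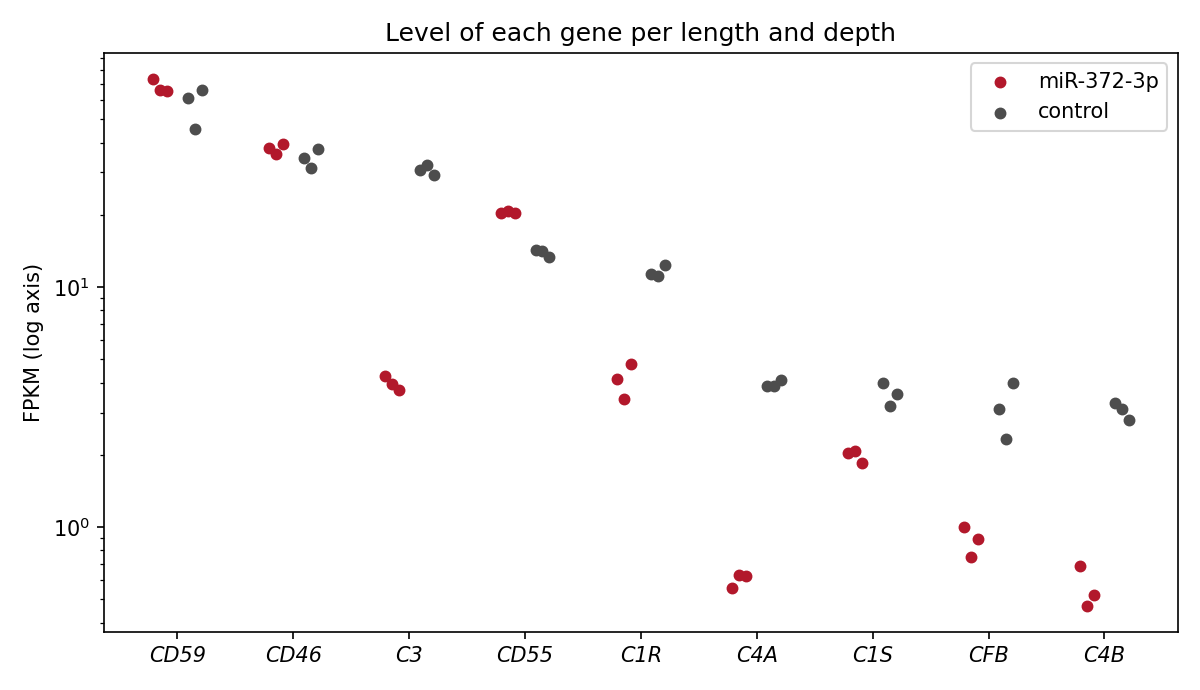
Deposited FPKM (log axis) of each gene in the 3 miR-372-3p libraries (red) and the 3 control libraries (grey), ordered by the control mean. The membrane regulators lie at 13.3 FPKM or more in all 6 libraries, whereas C3 is near 4 FPKM in miR-372-3p and near 31 FPKM in control libraries.

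Summed over genes, the 6 soluble components reached 12.7, 11.3 and 12.4 FPKM in overexpression replicates 1 to 3 and 56.2, 55.8 and 56.0 FPKM in control replicates 1 to 3. The 3 membrane regulators reached 132, 123 and 125 FPKM in overexpression and 110, 91.0 and 117 FPKM in control libraries. The ratio of soluble to membrane FPKM was 0.0958 ± 0.00373 in overexpression and 0.534 ± 0.0712 in control libraries (SD, n = 3 each). The groups did not overlap, but the list was made with the differences of these genes known. The ratio restates those differences and carries no weight of its own. C3 alone gave 30.7, 32.2 and 29.2 FPKM of the soluble sum in control replicates 1 to 3.

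The promoters of 2 genes that were lower and of the one that was higher are shown because soluble components fell together. The promoters of C3, C4A, C4B and C1S were not searched. Each is 300 bases of RefSeq sequence (GRCh38.p14), from 250 bases before the annotated start to 50 after. Capitals mark matches, on either strand, to 3 motifs: STAT (TTC and GAA with 3 bases of any kind between), interferon response (GAAA and GAAA with 2 bases between) and NF-kB (GGG, any 3 bases, T, any base, CC). CFB is at chr6:31945845-31946144 on the plus strand, C1R at chr12:7092396-7092695 on the minus strand and CD55 at chr1:207321428-207321727 on the plus strand.
CFB promoter: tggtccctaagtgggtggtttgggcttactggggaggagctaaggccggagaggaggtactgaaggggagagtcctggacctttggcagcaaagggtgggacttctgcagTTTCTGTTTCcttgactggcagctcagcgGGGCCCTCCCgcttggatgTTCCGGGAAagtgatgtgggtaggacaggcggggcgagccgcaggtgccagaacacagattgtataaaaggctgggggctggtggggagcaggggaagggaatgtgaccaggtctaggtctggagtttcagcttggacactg
C1R promoter: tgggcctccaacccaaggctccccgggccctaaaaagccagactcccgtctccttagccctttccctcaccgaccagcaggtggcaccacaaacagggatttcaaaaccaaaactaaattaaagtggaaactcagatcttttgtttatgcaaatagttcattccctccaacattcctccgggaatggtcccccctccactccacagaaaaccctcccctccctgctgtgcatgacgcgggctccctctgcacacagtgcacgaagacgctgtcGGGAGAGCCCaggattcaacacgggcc
CD55 promoter: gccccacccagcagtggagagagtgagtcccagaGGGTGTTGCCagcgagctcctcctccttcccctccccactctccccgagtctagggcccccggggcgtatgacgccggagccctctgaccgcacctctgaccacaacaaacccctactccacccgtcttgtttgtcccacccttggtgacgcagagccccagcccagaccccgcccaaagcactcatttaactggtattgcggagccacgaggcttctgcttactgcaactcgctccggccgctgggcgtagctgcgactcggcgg

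The CFB promoter held 1 match to each motif, with no overlap: the interferon-response motif starts 140 bases before the start, the NF-kB motif 111 and the STAT motif 92 bases before it. The C1R promoter held 1 NF-kB match, within its transcribed part, and the CD55 promoter 1, starting 216 bases before the start. Of 35097 promoters of this length, 7.66% held the STAT motif, 3.58% the interferon-response motif and 21.5% the NF-kB motif. A second C1R promoter and 1 pair of the CD59 promoters also held a STAT match, and neither CD46 promoter held any of the 3 motifs. Such matches describe letters, not binding.

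Other complement genes were taken from a list of 54 made by function, of which 17 were in the table. At an edgeR adjusted p under 0.05, 4 rose (26.8% of all genes did) and 7 fell (27.7% did), and the other 6 missed the threshold, with a median log2 fold change of −0.12. Regulators of the fluid phase went both ways. The genes of factor I (CFI, −0.59 ± 0.166), the protease that cuts C3b and C4b, and of the C4b-binding protein (C4BPA, −1.43 ± 0.272) fell. C4BPA had only 37, 61 and 40 counts in overexpression and 108, 119 and 94 in control libraries. Its log2 fold change ran from −1.77 to −1.24 with each library left out in turn. CLU, for clusterin, and VTN, for vitronectin, both of which hold back the membrane attack complex, rose. CLU reached 127 ± 3.66 CPM in overexpression, against 53.6 ± 2.67 CPM in control libraries (1.24 ± 0.049). VTN had 63, 71 and 63 counts in overexpression and 5, 6 and 0 in control libraries. Its log2 fold change (3.90 ± 0.516) is therefore of uncertain size, and on log2(FPKM + 0.1) it was 2.22. No row has under 208 counts in all, and VTN lies at that floor. It is thus in the table only through the libraries where it is high. The 4 genes counted as rising include VTN, whose rise carries no weight of its own.

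SERPING1, for the C1 inhibitor that inactivates C1r and C1s, rose slightly (0.32 ± 0.096), at 51.0 ± 2.05 CPM in overexpression and 40.9 ± 6.53 CPM in control libraries. C2, the partner of C4 in the classical convertase, had 82, 58 and 108 counts in overexpression and 45, 43 and 47 in control libraries. Its log2 fold change of 0.64 ± 0.242 was 0.41 and short of the threshold without overexpression replicate 3. Without control replicate 1, C2 and SERPING1 both missed the threshold and 2 genes of the list rose. CTSL (−0.48 ± 0.058), for a protease that can cleave C3 inside cells, and the C1q-binding proteins CALR (−0.30 ± 0.038) and C1QBP (−0.18 ± 0.040) also fell. C5, which starts the terminal pathway, had a log2 fold change of −0.02 ± 0.162, CFD, for the protease that activates factor B, 0.05 ± 0.203, and MASP1, a protease of the lectin pathway, −0.60 ± 0.237 (adjusted p = 0.0538 in edgeR).

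**Figure D3:**
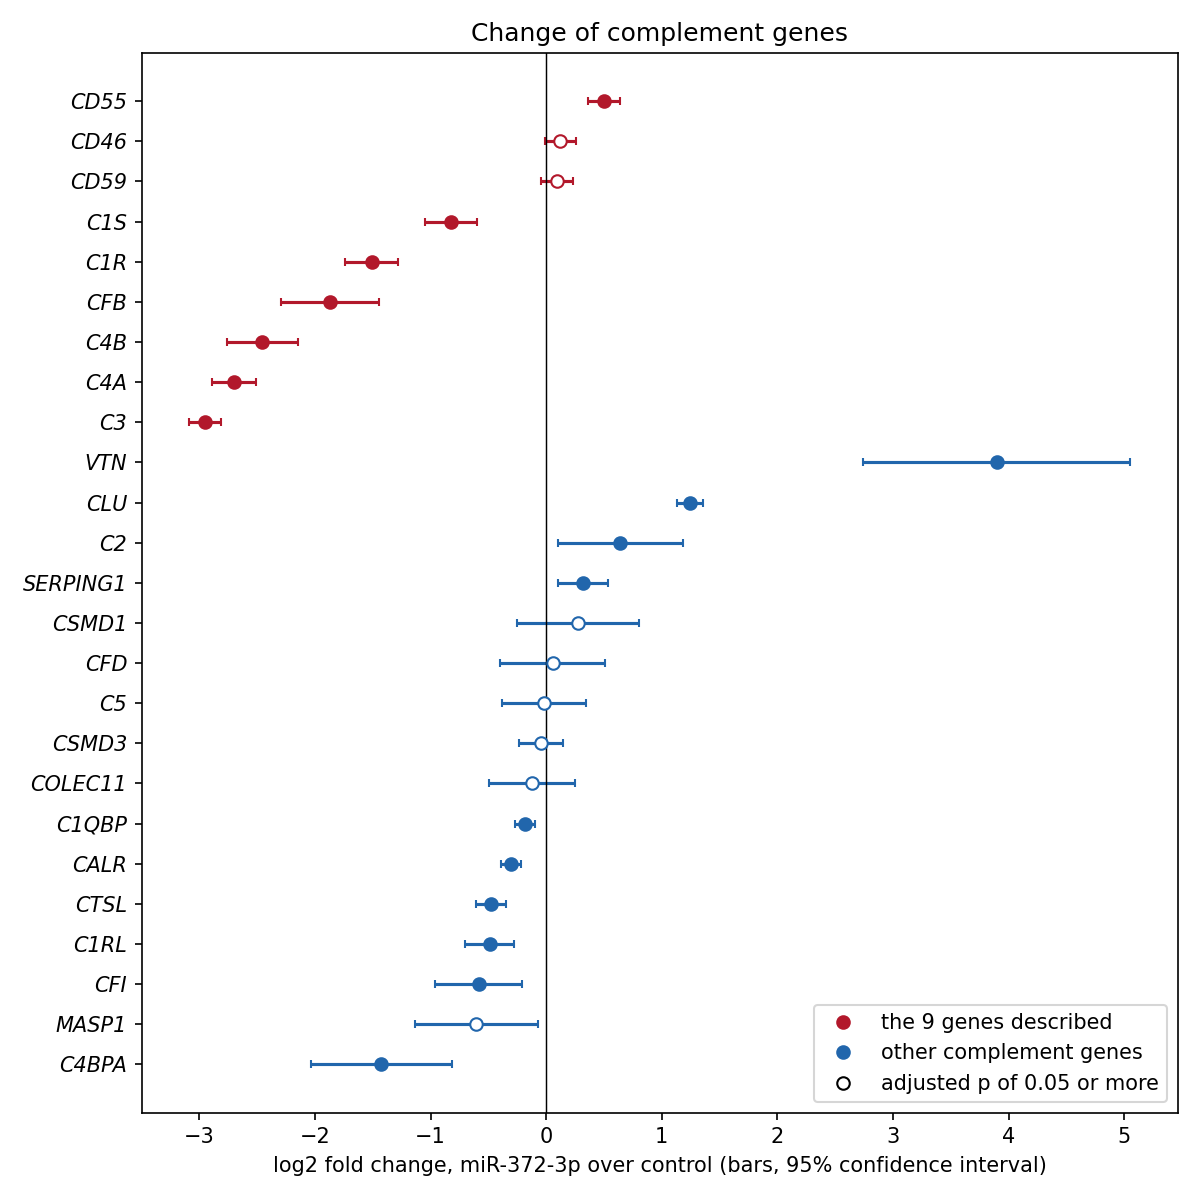
Log2 fold change of miR-372-3p over control (horizontal axis) with its 95% confidence interval for the 9 genes described (red) and other complement genes of the table (blue; 16 of 17 are drawn); open points did not pass an adjusted p of 0.05. The soluble components lie from C1S at −0.82 to C3 at −2.95, a range that also holds C4BPA at −1.43, while CLU and VTN stand at the high end.

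Soluble complement genes are acute-phase genes, switched on in liver cells by interleukin-6 and interleukin-1 through STAT3, C/EBP and NF-kB factors, and by interferon through IRF factors. Of 42 measured receptor and factor genes of this response, 21 fell (27.7% of all genes did), 8 rose (26.8% did) and 13 did not pass, with a median log2 fold change of −0.13. IRF2 (−1.32 ± 0.080), NFKBIA (−1.23 ± 0.080), the inhibitor and target of NF-kB, and TNFRSF1A (−1.07 ± 0.044), the main TNF receptor, fell. IRF9, a DNA-binding factor of the interferon response, had 67, 35 and 34 counts in overexpression and 422, 108 and 136 in control libraries. Its log2 fold change of −2.53 ± 0.511 was −1.66 without control replicate 1. SOCS1, a feedback inhibitor of JAK kinases, rose to 4.95 ± 0.322 CPM in overexpression, against 1.01 ± 0.310 CPM in control libraries (2.29 ± 0.228).

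Among the further members of this list, all chosen after their values were seen, the NF-kB subunit RELA (−1.03 ± 0.061), CEBPD (−0.97 ± 0.070) and IRF1 (−0.88 ± 0.044) fell. The interleukin-6 co-receptor IL6ST (−0.65 ± 0.043) and IL1R1 (−0.58 ± 0.082) fell too. STAT3 (−0.25 ± 0.038) and CEBPB (−0.23 ± 0.034) fell by less than 1.2-fold. LIFR (0.72 ± 0.169) and IL1RAP (0.46 ± 0.092) rose, and SOCS3 (−0.11 ± 0.061) did not pass. Smaller rises were those of IFNGR2 (0.32 ± 0.046), TRAF6 (0.29 ± 0.078), NFKB2 (0.28 ± 0.050), STAT2 (0.18 ± 0.044) and CHUK (0.16 ± 0.062). With SOCS1 these are all 8 genes of the list that rose, against 21 that fell. Outside this list, secreted hepatocyte markers, also chosen after their values were seen, went both ways. The fibrinogen genes FGA (1.05 ± 0.139), FGB (0.80 ± 0.056) and FGG (0.79 ± 0.084) rose, and SERPINA1 (−2.35 ± 0.169) fell. Whether any of these changes bears on the complement genes was not tested.

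CD55 and CD59 reach the surface on a GPI anchor. Of 30 measured genes that build, attach or trim it, 12 fell (27.7% of all genes did), 3 rose (26.8% did) and 15 did not pass, with a median log2 fold change of −0.15. PIGK (−0.89 ± 0.056), PIGS (−0.73 ± 0.042) and PIGU (−0.71 ± 0.056), subunits of the transamidase that joins anchor to protein, fell. So did the mannosyltransferase gene PIGM (−0.65 ± 0.070) and PIGF (−0.57 ± 0.140), needed for adding ethanolamine phosphate. PIGK had 47.7 ± 2.32 CPM in overexpression and 88.4 ± 4.69 CPM in control libraries (SD, n = 3 each). GPLD1, a phospholipase that cuts GPI anchors, rose (1.27 ± 0.257) at 71, 71 and 97 counts in overexpression and 23, 26 and 36 in control libraries. At its control level in all libraries, it would fall short of the 208 counts that every row reaches. It is thus in the table only through the libraries where it is high. The 3 genes counted as rising include GPLD1, whose rise carries no weight of its own. RNA counts do not measure protein at the surface.

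**Figure D4:**
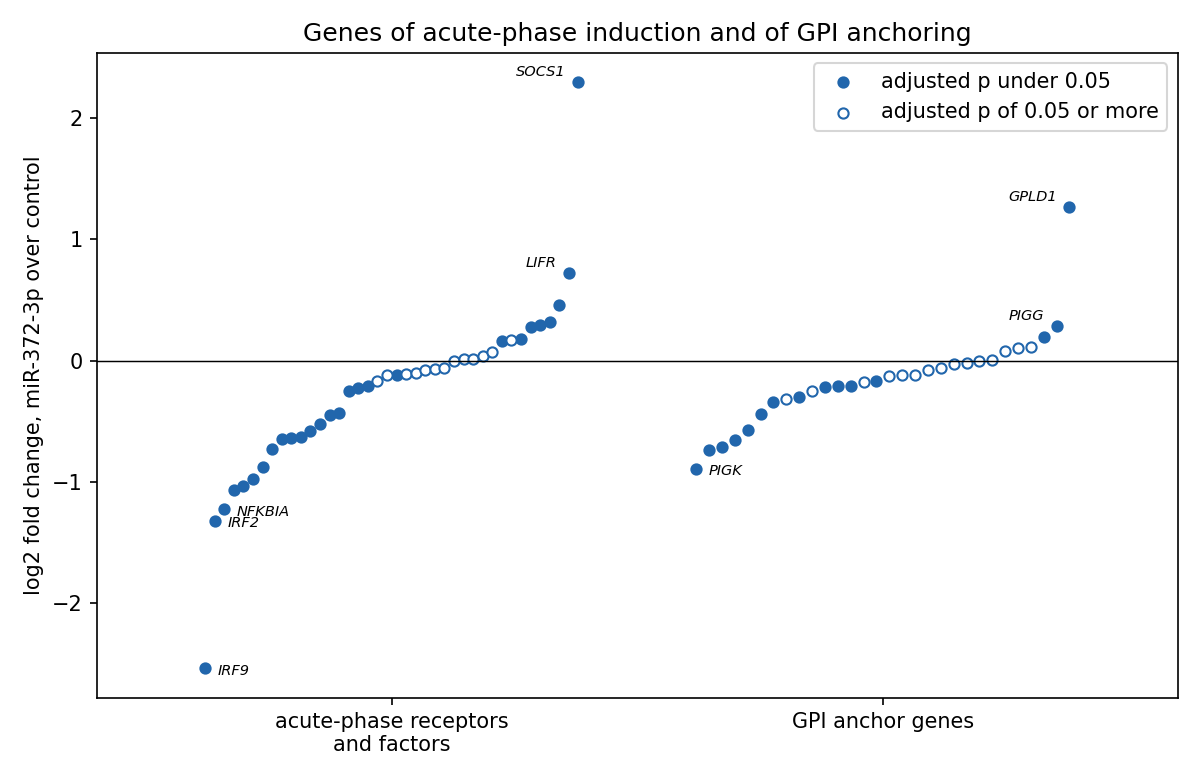
Log2 fold change of miR-372-3p over control (vertical axis) for receptor and factor genes of the acute-phase response (left) and 30 GPI anchor genes (right), each ordered by value; filled points passed an adjusted p of 0.05. The left group runs from IRF9 at −2.53 to SOCS1 at 2.29, and the right from PIGK at −0.89 to GPLD1 at 1.27.

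The genes most like 3 of the 9 were found by Pearson's r of log2 CPM over the same 6 libraries, among the 11704 genes whose mean reached 2 CPM. Among the closest 3 were CHRM3 and MICA for C3 (r = 0.9997 each). For C1R they were ENPP2 (0.9991), TRIM2 (0.9989) and DHX40 (0.9987), and for CD55 MARK4 (0.9996), ZMYM3 (0.9994) and C2CD3 (0.9987). An r above 0.99 was reached by 466 genes with C3, 150 with C1R and 76 with CD55. These values share the same libraries and depth and describe likeness over 2 groups of 3 libraries. They do not measure the size of a change. The log2 fold change was −0.78 in CHRM3 and −1.96 in MICA, against −2.95 in C3. ENPP2 had −1.25, TRIM2 −0.89 and DHX40 −0.27, against −1.51 in C1R. MARK4 had 0.74, ZMYM3 0.38 and C2CD3 0.38, against 0.50 in CD55.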

How the data were processed

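The authors deposited one table of 6 libraries with counts (whole numbers, not normalized), FPKM (scaled to length and depth), plus, for their own comparison, a log2 fold change and a p-value, per the file headers. The submitters' processing notes name GRCh38, HISAT2 2.0.4, StringTie 2.2.1 and DESeq2 1.38.3; the sources used here do not give annotation or counting. Per the labels' protocols, library preparation started from 1 µg of total RNA and used a NEBNext Ultra kit, which does not mark strand, so overlapping antisense reads cannot be told apart. Samples were grouped and numbered by title. The authors' deposited table gives C3 −2.95 and CD55 0.50 as log2 fold changes.

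The 1610 rows with no gene name held 2.64 to 3.63% of counts and were left out. The other 12396 genes entered a quasi-likelihood F-test (R 4.3.3, edgeR 4.0.16, TMM factors, filterByExpr, which removed 0 genes, no block). Benjamini-Hochberg adjustment covered all of them, with a threshold of 0.05, and standard errors come from that fit. No row has under 208 counts in all, so genes of lower expression are not analysed here. CPM uses TMM-scaled totals. FPKM served for levels between genes. Chi-square over degrees of freedom was 6.86 to 38.6 between replicates, above counting noise. The fit was tested on simulated data.

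Members, lists and the rule for named genes were chosen with earlier results of these data known. The rule named all 9 genes, other complement genes past the threshold, and the 6 largest changes of each further list. A few genes that the rule or the lists hold are not reported here by name, and the counts include them. MASP1, C5, CFD and genes said to be so were added after their values were seen. Alternatives were other scalings and filters, DESeq2 1.42.0, FPKM in limma 3.58.1 with a pseudocount of 0.1, the replicate number as a block and each library left out. Seed matches were read from GENCODE 29 (GRCh38) in genes with a 3′ UTR of at least 50 nt; promoters and the microRNA are from RefSeq.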

Additional observations from a re-analysis of the deposited data

How the results depend on the processing

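Under the alternatives run for each gene, no log2 fold change of the 9 genes or of the other named genes changed direction, and 13 values of named genes in all lost the threshold (9 of them for C2, 2 each for CFI and SERPING1). Leaving out each library in turn, the median log2 fold change of the 9 genes ran from −1.62 to −1.41, genes that rose from 2800 to 3546 and genes that fell from 2961 to 3553. Other complement genes that rose ran from 2 to 3 and those that fell from 6 to 8. For C3 the log2 fold change ran from −2.997 to −2.90, for CFB from −2.03 to −1.67 and for CD55 from 0.43 to 0.54. Leaving out the filter repeats the reported fit, since the filter removed 0 genes, and summing C4A and C4B bears on those 2 genes alone. CFI missed the threshold on FPKM and without overexpression replicate 1. VTN has no value under the filter of a mean of 1 CPM, which it fails. With the replicate number as a block, 3381 genes rose and 3428 fell, and CD46 (0.13) passed the threshold. Same-numbered libraries deviated from their group means with correlations of −0.136, −0.0517 and 0.103, so the numbers were not taken to pair them, and not every library correlated best with its own number. DESeq2 called 3359 genes higher and 3465 lower. Depth limits VTN, C2, C4BPA, GPLD1 and IRF9, which rest on few counts.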
